A study of Homo sapiens with 9 samples.

Results

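SAA1, SAA2, LCN2, C3, CFB, C1R, C1S, SERPINA1, SERPINA3 and PI3 encode secreted proteins of the acute-phase and complement response of epithelia. They were taken from the count table by symbol, and all 10 were found among its 60199 symbols and passed the filter on low counts together with 15717 genes in all. Poly-A RNA was measured by paired-end sequencing in MCF10A, a human non-malignant mammary epithelial line that lacks CDKN2A and carries an amplified MYC. CT libraries came from untreated parental cells, MC26 from unsorted MCF10A cells kept for a long time with BMP2 and IL6, and M1B26 from cells sorted for the BMP receptor BMPR1B, given the same factors, picked as soft-agar clones and expanded with both factors present. All lines grew in a medium with horse serum, insulin, hydrocortisone, cholera toxin and EGF. The labels and the methods of the study state different doses of BMP2 and IL6, so none is given here. Each line had 3 libraries, which were not tied to clones or preparation batches in the labels, so the p-values measure only the spread between these libraries, which may be technical, and a batch that followed a line cannot be told apart from it.

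The acute-phase response is a shift in secreted proteins during inflammation, best known in liver and also made by epithelia such as breast, airway and gut. IL6 acts through its receptor and STAT3, and IL1 and TNF act through NF-kB. Members of the C/EBP family join them at many of these promoters. The complement system is a protease cascade in which C1r and C1s start the classical pathway, factor B drives the alternative pathway, and both pathways converge on C3. The serpins SERPINA1 and SERPINA3 and the elastase inhibitor PI3 restrain neutrophil proteases. Members SAA2, LCN2, CFB, C1R, C1S and PI3 also belong to the ENI10 signature that the study derived from other samples.

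Total counts ran from 21425118 to 80076597 per library, and the shallowest was CT replicate 2. Values below are counts scaled to a library of 1000000 after TMM correction (CPM). The labelled cell type held against its markers: all 8 epithelial markers were expressed and summed to 6574 to 9074 CPM per library. KRT5 supplied most of this sum, and single markers differed between lines. In CT, MC26 and M1B26, EPCAM averaged 70.4, 14.8 and 72.1 CPM, CDH1 76.4, 40.7 and 44.1 CPM, and KRT14 54.1, 1097 and 548 CPM. Hepatocyte markers summed to 0.124 to 0.400 CPM, with 4 of 7 at or under 3 counts in every library, among them APOB and ALB. Leukocyte markers summed to 11.9 to 17.2 CPM in CT, 21.5 to 25.2 CPM in MC26 and 39.3 to 53.4 CPM in M1B26, of which CD14 and CSF1R made up nearly all, with CD3E and MS4A1 at 0 counts. Fibroblast markers summed to 37.4 to 37.8 CPM in CT, 17.1 to 56.8 CPM in MC26 and 28.5 to 39.7 CPM in M1B26, with THY1 at 0 counts and COL1A2 and COL3A1 at no more than 1 count. The part of such RNA in the results below was not tested. In these bulk libraries fewer expressing cells and less RNA per cell cannot be told apart.

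The members covered a wide range of levels. On the scale of CPM per kilobase of exon, SAA1 had a mean of 132 and C3 of 94.1 over the 9 libraries, followed by SERPINA1 at 20.9, PI3 at 11.3, SAA2 at 9.07, SERPINA3 at 7.07, C1R at 5.32, CFB at 3.02, C1S at 2.23 and LCN2 at 0.384. SAA1 stood above C3 in 5 of the 9 libraries, so their order was not fixed, whereas C3 exceeded SERPINA1 in 9 of 9. Lower in the order, SERPINA3 stood above C1R in only 3 of 9. PI3 was above SAA2, SAA2 above SERPINA3 and CFB above C1S in 6 of 9 each. The order between genes depends on the length used, here the union of all annotated exons. It was 1062 bases for SAA1, 2242 for SAA2, 551 for PI3 and 11577 for C3. In plain CPM SAA2 averaged 20.3 against 6.20 for PI3, and C3 1089 against 140 for SAA1. By its mean SERPINA3 ranked next after SAA1 and C3 in CT, at 13.1 CPM per kilobase, and only above LCN2 in MC26, at 2.77. In MC26 its range (0.731 to 5.96) overlapped that of C1S (1.57 to 4.14), the next above it. Together the members took 0.0701% of all counts in MC26 replicate 1, the lowest library, and 0.225% in M1B26 replicate 3, the highest. C3 alone supplied 70.5% to 81.1% of the member counts.

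Each line was compared with CT and the 2 derived lines with each other, to ask how these genes differed after exposure to BMP2 and IL6 and with the starting population. Both comparisons with CT share the same 3 CT libraries. A gene was called changed at an adjusted p under 0.05 by the quasi-likelihood test of edgeR, with Benjamini-Hochberg adjustment over all genes tested. MC26 differed from CT in 5 members (3 higher, 2 lower), where 38.7% of all tested genes were called (18.8% higher, 19.9% lower). M1B26 differed from CT in 5 members, all higher, where 48.9% of all tested genes were called (25.2% higher, 23.7% lower). Between M1B26 and MC26, 4 members were called (3 higher in M1B26, 1 lower), where the share of all tested genes was 39.5% (21.2% higher, 18.4% lower). Changes were thus about as frequent among the members as among genes at large. The median log2 fold change of the members was 0.28, 0.77 and 0.88 in the same order, and that of all genes 0.00 in each. The CPM ranges of the groups did not overlap for 6, 6 and 4 members, against 50.3%, 59.0% and 53.5% of genes.

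**Figure D1:**
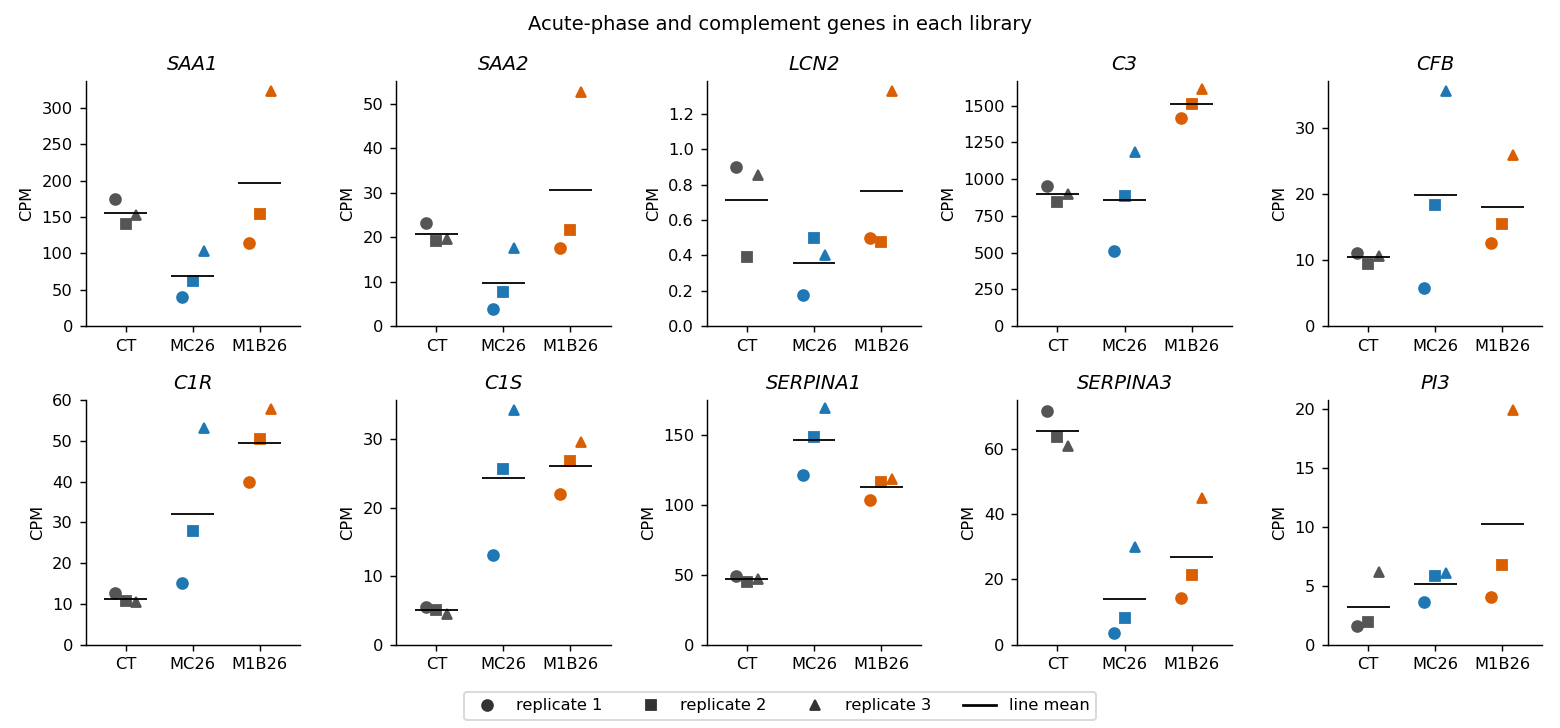
CPM of the 10 members in each library on linear axes from 0, with 1 panel per gene, 1 point per library and a line at the mean of each cell line. CT libraries lie close together for most members, while MC26 and M1B26 libraries are spread, as for SERPINA3 in MC26 (3.66 to 29.8 CPM).

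SAA1 and SAA2 encode serum amyloid A, lipid-binding proteins that rise steeply in inflammation, and lie 17.6 kb apart on chromosome 11. SAA1 (chromosome 11, 18266260 to 18269977, plus strand, GRCh38) read 175, 141 and 153 CPM in CT replicates 1 to 3, 39.8, 62.0 and 103 CPM in MC26, and 114, 153 and 323 CPM in M1B26. Every MC26 library was below every CT and every M1B26 library, while M1B26 spanned the CT values. SAA1 fell in MC26 by 1.20 on the log2 scale (SE 0.38, edgeR adjusted p 0.0270), or 2.29-fold. This call was lost without CT replicate 1 (adjusted p 0.0760), CT replicate 3 (0.0504), MC26 replicate 1 (0.0894) or MC26 replicate 2 (0.0844). M1B26 against CT gave 0.33 (SE 0.37, edgeR adjusted p 0.480). Against MC26, M1B26 was higher by 1.53 (SE 0.38, edgeR adjusted p 0.00862), which went to 0.97 without M1B26 replicate 3 and kept its call.

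SAA2 (chromosome 11, 18239223 to 18248668, minus strand) read 23.2, 19.1 and 19.6 CPM in CT, 3.80, 7.61 and 17.6 CPM in MC26, and 17.7, 21.7 and 52.7 CPM in M1B26. The order of the libraries within each line was that of SAA1, and MC26 again lay below the other lines without overlap. The log2 fold change of MC26 against CT was -1.09 (SE 0.49, edgeR adjusted p 0.103) and that of M1B26 against CT 0.57 (SE 0.47, adjusted p 0.336). Without MC26 replicate 3 the former was -1.86 and called (adjusted p 0.00831). SAA2 was higher in M1B26 than in MC26 by 1.66 (SE 0.49, edgeR adjusted p 0.0202). That call was lost without MC26 replicate 1 (1.28, adjusted p 0.0517), MC26 replicate 2 (1.52, adjusted p 0.0767) or M1B26 replicate 3 (1.02, adjusted p 0.102), and the value went to 2.44 without MC26 replicate 3. The ratio of SAA2 to SAA1 counts averaged 0.132 ± 0.00404 in CT, 0.130 ± 0.0386 in MC26 and 0.153 ± 0.0113 in M1B26 (mean ± SD, n = 3), with overlap between MC26 and the other lines. How the authors' counting split reads between these near-identical copies is not given, and 34.2% of the 50-base words in the SAA1 transcripts also occur in SAA2, so each gene's own value is uncertain.

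LCN2 encodes lipocalin 2, which binds bacterial siderophores. The gene (chromosome 9, 128149071 to 128153453, plus strand) was close to the limit of detection, with 7 to 72 counts per library. It read 0.900, 0.393 and 0.854 CPM in CT, 0.174, 0.497 and 0.400 CPM in MC26, and 0.496, 0.473 and 1.33 CPM in M1B26. The lines overlapped in every comparison. The log2 fold changes were -1.09 (SE 0.49, edgeR adjusted p 0.103) in MC26 against CT, 0.04 (SE 0.44, adjusted p 0.955) for M1B26 against CT, and 1.13 (SE 0.50, adjusted p 0.0935) for M1B26 against MC26. The first was called without M1B26 replicate 3 (adjusted p 0.0476). Its promoter is a textbook target of NF-kB and C/EBP, and the stretch shown holds a match to the kappa B consensus and a C/EBP match (TTGCNNAA), both in capitals. It lies outside annotated exons, within 250 bases before a RefSeq start (GRCh38.p14, chr9:128149265-128149440, plus strand).
LCN2: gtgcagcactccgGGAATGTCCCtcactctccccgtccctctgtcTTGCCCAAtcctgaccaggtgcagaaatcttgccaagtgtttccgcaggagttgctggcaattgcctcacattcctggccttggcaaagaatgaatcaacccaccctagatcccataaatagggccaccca
RefSeq windows (250 bases before to 50 after the start) were found for 5 of the 10 members: LCN2, CFB, C1R, SERPINA1 and SERPINA3. Searched on both strands, the kappa B consensus occurred in 5.91% of all 35116 windows, TTGCNNAA in 10.5% and the STAT motif TTCNNNGAA in 7.66%. A match is a description of letters, not evidence of binding.

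C1R and C1S, the serine proteases of the first complement component, had the highest fold changes of the complement members against CT. They lie 9.18 kb apart on chromosome 12. C1R (chromosome 12, 7080214 to 7092540, minus strand) read 12.7, 10.7 and 10.3 CPM in CT, 15.0, 27.8 and 53.1 CPM in MC26, and 40.0, 50.4 and 57.8 CPM in M1B26. All MC26 and M1B26 libraries were above all CT libraries, with MC26 replicate 1 only just so. C1R rose in MC26 by 1.50 (SE 0.35, edgeR adjusted p 0.00619), or 2.84-fold, and in M1B26 by 2.13 (SE 0.35, adjusted p 0.000552), or 4.38-fold. Without MC26 replicate 3 the MC26 value was 0.92 and still called. C1R shares 672 exonic bases with C1RL, a neighbouring gene with 11375 counts in all, and reads there could be assigned to either. C1RL itself had log2 fold changes of -0.15 in MC26 (edgeR adjusted p 0.389) and -0.32 in M1B26 (adjusted p 0.0588).

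C1S (chromosome 12, 6988259 to 7071032, plus strand) read 5.44, 5.07 and 4.45 CPM in CT, 13.0, 25.7 and 34.4 CPM in MC26, and 22.1, 26.9 and 29.6 CPM in M1B26. No CT library reached 6 CPM and no other library was below 13. C1S rose by 2.29 in MC26 (SE 0.29, edgeR adjusted p 0.000133), or 4.90-fold, and by 2.40 in M1B26 (SE 0.29, adjusted p 6.25e-05), or 5.27-fold. The derived lines did not differ detectably in C1S (0.11, SE 0.26, edgeR adjusted p 0.775) or in C1R (0.63, SE 0.33, adjusted p 0.157), although C1R was called without MC26 replicate 3 (1.21, adjusted p 0.00214). The C1R to C1S count ratio averaged 2.26 ± 0.125 in CT, 1.26 ± 0.250 in MC26 and 1.88 ± 0.0696 in M1B26 (mean ± SD, n = 3), without overlap between the lines. The C1R promoter stretch directly before its first exon (GRCh38.p14, chr12:7092541-7092695, minus strand) holds a C/EBP match on the opposite strand, in capitals. The CFB window, around a start inside the annotated gene, holds a STAT match (chr6:31946003-31946011, plus strand), given with its flanks. A further C1R window, around a start inside the gene, also holds a STAT match (chr12:7091971-7091979) and a C/EBP match (chr12:7092053-7092060).
C1R: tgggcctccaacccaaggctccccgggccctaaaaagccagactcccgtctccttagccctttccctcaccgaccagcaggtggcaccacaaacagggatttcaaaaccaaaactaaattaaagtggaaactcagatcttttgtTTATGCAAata
CFB: cgcttggatgTTCCGGGAAagtgatgtgg

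C3, the protein on which the complement pathways meet, was the most abundant member in counts. C3 (chromosome 19, 6677704 to 6730562, minus strand) read 950, 842 and 896 CPM in CT, 513, 883 and 1184 CPM in MC26, and 1414, 1508 and 1612 CPM in M1B26. The M1B26 libraries lay above all others, and the MC26 libraries lay on either side of CT. C3 rose in M1B26 against CT by 0.75 (SE 0.22, edgeR adjusted p 0.0148), or 1.69-fold, and against MC26 by 0.81 (SE 0.22, adjusted p 0.0132). The first call was narrowly lost without CT replicate 2 (0.71, adjusted p 0.0514). MC26 against CT gave -0.06 (SE 0.22, edgeR adjusted p 0.856).

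CFB, complement factor B (chromosome 6, 31945650 to 31952086, plus strand), read 11.1, 9.43 and 10.6 CPM in CT, 5.69, 18.3 and 35.6 CPM in MC26, and 12.6, 15.4 and 25.9 CPM in M1B26. MC26 libraries lay both below and above CT, and M1B26 libraries all lay above it. The log2 fold changes were 0.93 (SE 0.48, edgeR adjusted p 0.152), 0.79 (SE 0.48, adjusted p 0.199) and -0.14 (SE 0.47, adjusted p 0.834) for MC26 and M1B26 against CT and M1B26 against MC26. MC26 against CT ran from 0.20 to 1.37 on leaving out a library and was called without MC26 replicate 1 (1.37, adjusted p 0.00705). M1B26 against CT was called without MC26 replicate 1 (adjusted p 0.0365) and on the 6 compared libraries alone (adjusted p 0.0135). A readthrough gene overlaps 2249 exonic bases of CFB and had no matching symbol in the table.

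SERPINA1 and SERPINA3, on chromosome 14 with 222 kb between them, changed in opposite directions in MC26. SERPINA1 (chromosome 14, 94376747 to 94390693, minus strand) encodes alpha-1-antitrypsin, the main inhibitor of neutrophil elastase. It read 49.0, 44.9 and 47.2 CPM in CT, 122, 149 and 170 CPM in MC26, and 104, 117 and 118 CPM in M1B26. The 3 lines were separated without overlap, with CT lowest and MC26 highest. SERPINA1 rose by 1.64 in MC26 (SE 0.11, edgeR adjusted p 1.95e-06), or 3.12-fold, and by 1.26 in M1B26 (SE 0.11, adjusted p 6.65e-06), or 2.40-fold. M1B26 was lower than MC26 (log2 fold change -0.38, SE 0.11, edgeR adjusted p 0.0167). This last call was lost without MC26 replicate 2 (-0.37, adjusted p 0.0538), MC26 replicate 3 (-0.26, adjusted p 0.0561) or M1B26 replicate 1 (-0.32, adjusted p 0.0691).

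SERPINA3 (chromosome 14, 94612384 to 94624055, plus strand) encodes alpha-1-antichymotrypsin, an inhibitor of cathepsin G. It read 71.7, 63.5 and 61.0 CPM in CT, 3.66, 8.13 and 29.8 CPM in MC26, and 14.4, 21.3 and 44.8 CPM in M1B26. All libraries of both derived lines were below all CT libraries, and the derived lines overlapped each other. SERPINA3 fell in MC26 by 2.23 (SE 0.60, edgeR adjusted p 0.0128), or 4.69-fold. The call was lost without MC26 replicate 2 (-1.96, adjusted p 0.0542), and the value was -3.48 without MC26 replicate 3. M1B26 against CT gave -1.28 (SE 0.57, edgeR adjusted p 0.0852) and M1B26 against MC26 0.95 (SE 0.59, adjusted p 0.222). M1B26 against CT was called without MC26 replicate 1 (adjusted p 0.0321), MC26 replicate 3 (0.0106) or M1B26 replicate 3 (-1.87, adjusted p 0.0348) and on the 6 compared libraries alone (0.00672), and M1B26 against MC26 was called without MC26 replicate 3 (2.20, adjusted p 0.00346). A readthrough gene overlaps 1585 of its exonic bases. The ratio of SERPINA1 to SERPINA3 counts averaged 0.721 ± 0.0471 in CT, 19.1 ± 13.8 in MC26 and 5.12 ± 2.31 in M1B26 (mean ± SD, n = 3). The stretches before both genes are set side by side because the genes moved apart in MC26, SERPINA1 from chr14:94390694-94390770 on the minus strand and SERPINA3 from chr14:94612141-94612296 on the plus strand (GRCh38.p14), and neither holds any of the 3 motifs.
SERPINA1: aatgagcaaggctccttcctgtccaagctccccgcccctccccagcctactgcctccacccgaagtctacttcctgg
SERPINA3: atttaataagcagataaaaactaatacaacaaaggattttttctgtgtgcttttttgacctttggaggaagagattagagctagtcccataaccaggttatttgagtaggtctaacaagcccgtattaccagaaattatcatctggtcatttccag

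PI3 encodes elafin, an inhibitor of neutrophil elastase and proteinase 3 made by epithelia. PI3 (chromosome 20, 45174902 to 45176544, plus strand) read 1.56, 1.92 and 6.14 CPM in CT, 3.61, 5.81 and 6.07 CPM in MC26, and 4.04, 6.77 and 19.9 CPM in M1B26. CT replicate 3 stood above the other CT libraries and M1B26 replicate 3 above all libraries, and the lines overlapped. PI3 was called higher in M1B26 than in CT (log2 fold change 1.61, SE 0.59, edgeR adjusted p 0.0421). The call was lost without CT replicate 1 (1.25, adjusted p 0.137), CT replicate 2 (1.40, adjusted p 0.119), MC26 replicate 2 (1.62, adjusted p 0.0565) or M1B26 replicate 3 (0.69, adjusted p 0.294), with 2.60 without CT replicate 3, and by DESeq2 (1.67, adjusted p 0.0543). MC26 against CT gave 0.62 (SE 0.60, edgeR adjusted p 0.452) and M1B26 against MC26 0.997 (SE 0.58, adjusted p 0.196).

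**Figure D2:**
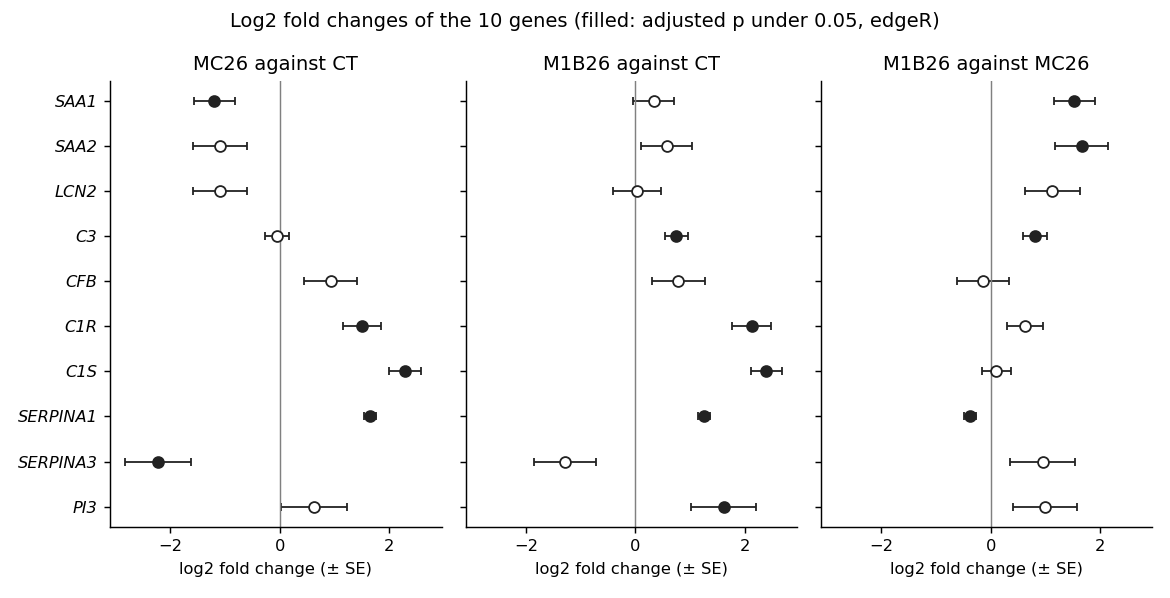
Log2 fold changes of the 10 members in the 3 comparisons with their standard errors, fitted by edgeR over 9 libraries, with filled points at an adjusted p under 0.05. C1R, C1S and SERPINA1 lie above 0 in both comparisons with CT, and SERPINA3 lies below 0 in both, with 1 of its 2 values called.

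**Figure D3:**
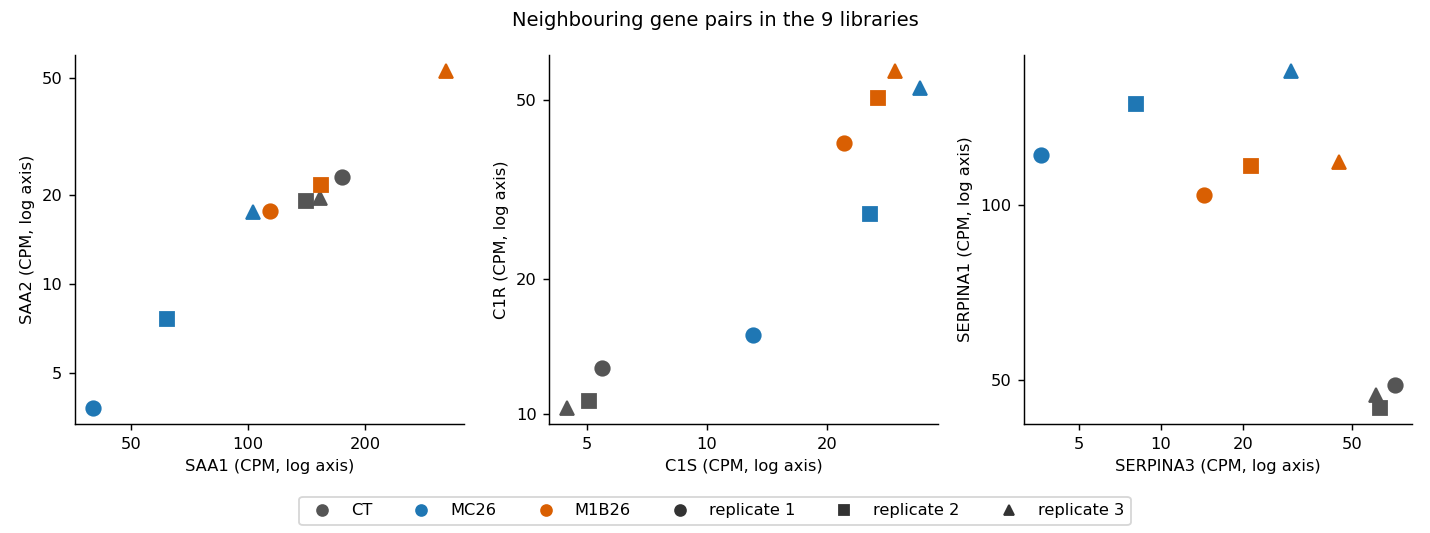
CPM of 3 pairs of neighbouring members on log axes, with 1 symbol per library. SAA2 follows SAA1 across the lines, C1R and C1S are higher in the derived lines than in CT, and in the right panel CT libraries have low SERPINA1 and high SERPINA3.

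Within the derived lines the members varied together between libraries. In MC26, replicate 1 was lowest for 10 of 10 members and replicate 3 highest for 9, the exception being LCN2, highest in replicate 2. In M1B26, replicate 3 was highest for 10 of 10 and replicate 1 lowest for 9. In CT, replicate 1 was highest for 9 and replicate 2 lowest for 6. Both extremes in the named libraries were found for 9 members in MC26 and for 23.7% of the 10637 genes averaging 5 CPM or more, for 9 in M1B26 and 16.9% of genes, and for 6 in CT and 14.3% of genes. These libraries were picked from the members' own extremes. Among 45 other listed genes of that level the shares were 37.8% in MC26, 26.7% in M1B26 and 28.9% in CT. Of the 9 members with that mean level, the median ratio of the highest to the lowest library came to 1.21 for CT, 2.64 for MC26 and 2.06 for M1B26, where all such genes had medians of 1.16, 1.13 and 1.11. A ratio of at least 2 was seen for 1, 7 and 5 of these 9 members in CT, MC26 and M1B26, and for 0.320%, 1.52% and 0.611% of all such genes. SERPINA1 was the steadiest member in MC26, at 1.39, and SERPINA3 the most variable, at 8.16. Outside the members, S100A8 and S100A9, which encode calprotectin, stood high in the same libraries, with 223 and 669 CPM in MC26 replicate 3 and 525 and 1387 CPM in M1B26 replicate 3. The fibroblast marker DCN also went with the MC26 libraries, at 5.45, 15.9 and 47.3 CPM in replicates 1 to 3. All fibroblast markers summed to 17.1, 25.9 and 56.8 CPM there, and without DCN their sum did not rise in this order. In M1B26 they summed to 28.5, 39.7 and 36.8 CPM, which was not highest in replicate 3. The part of DCN in the member values was not tested.

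**Figure D4:**
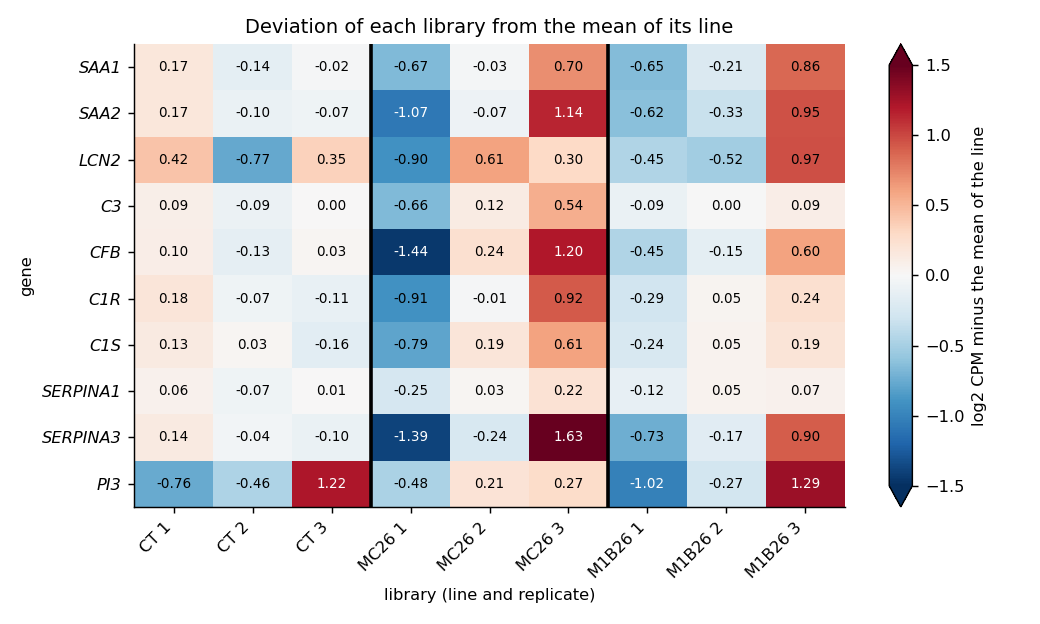
Coloured cells give the deviation of each member's log2 CPM from the mean of its own line, with genes down the side and libraries along the bottom. MC26 replicate 1 lies below its line mean for all 10 members and M1B26 replicate 3 above it for all 10.

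Around the members, most of the complement cascade was not detectable at this depth. Of 25 other complement components 6 passed the filter, and C1QA, C1QB, C1QC, C6, C8A, MBL2 and FCN2 had 0 counts in every library. CFD, the protease that activates factor B, fell by 2.33 in MC26 (SE 0.47, edgeR adjusted p 0.00288) and rose by 1.47 in M1B26 (SE 0.32, adjusted p 0.00317), with 85 counts over the CT libraries, 11 over MC26 and 181 over M1B26. C5 fell in both lines, with log2 fold changes of -0.64 and -1.31 (edgeR adjusted p 0.0152 and 0.000181). Properdin, CFP, was called only between M1B26 and MC26, at -1.44 (edgeR adjusted p 0.0334). C1RL, C4A and C4B passed no test, and reads of C4A and C4B cannot be told apart with certainty.

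Of 21 complement regulators and receptors 14 were tested. In MC26 8 rose and 4 fell, where 38.7% of all genes were called, and in M1B26 6 rose and 4 fell, where 48.9% were. Between M1B26 and MC26 4 were higher and 1 lower, where 39.5% of all genes were called. CFI, the protease that degrades C3b, averaged 2.65 ± 0.400 CPM in CT, 14.2 ± 5.49 CPM in MC26 and 25.0 ± 4.62 CPM in M1B26 (mean ± SD, n = 3) and rose by 2.46 (SE 0.28) and 3.27 (SE 0.28). CD59, which blocks the membrane attack complex, rose by 1.13 and 1.19, from 308 ± 8.73 CPM. The C3a receptor gene C3AR1 rose by 3.85 and 4.45 from a total of 33 counts in CT, while the C5a receptor gene C5AR1 fell by 3.40 and by 2.54. SERPING1, the inhibitor of C1r and C1s, rose by 2.80 in MC26 (edgeR adjusted p 0.000560) and was lower in M1B26 than in MC26 (log2 fold change -4.50, adjusted p 0.000128), with 25, 123 and 6 counts in all in CT, MC26 and M1B26. Clusterin, CLU, fell in both lines (-1.56 and -1.01). The integrin genes ITGAX (1.69 and 1.72) and ITGB2 (-1.10 and -1.48) were called against CT in MC26 and M1B26. So were the C3d receptor gene CR2 (-2.01 and -1.10) and, in MC26 only, SUSD4 (1.91). Counts were low for ITGAX (34, 77 and 90 in all in CT, MC26 and M1B26), CR2 (82, 14 and 31) and SUSD4 (23, 60 and 36).

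**Figure D5:**
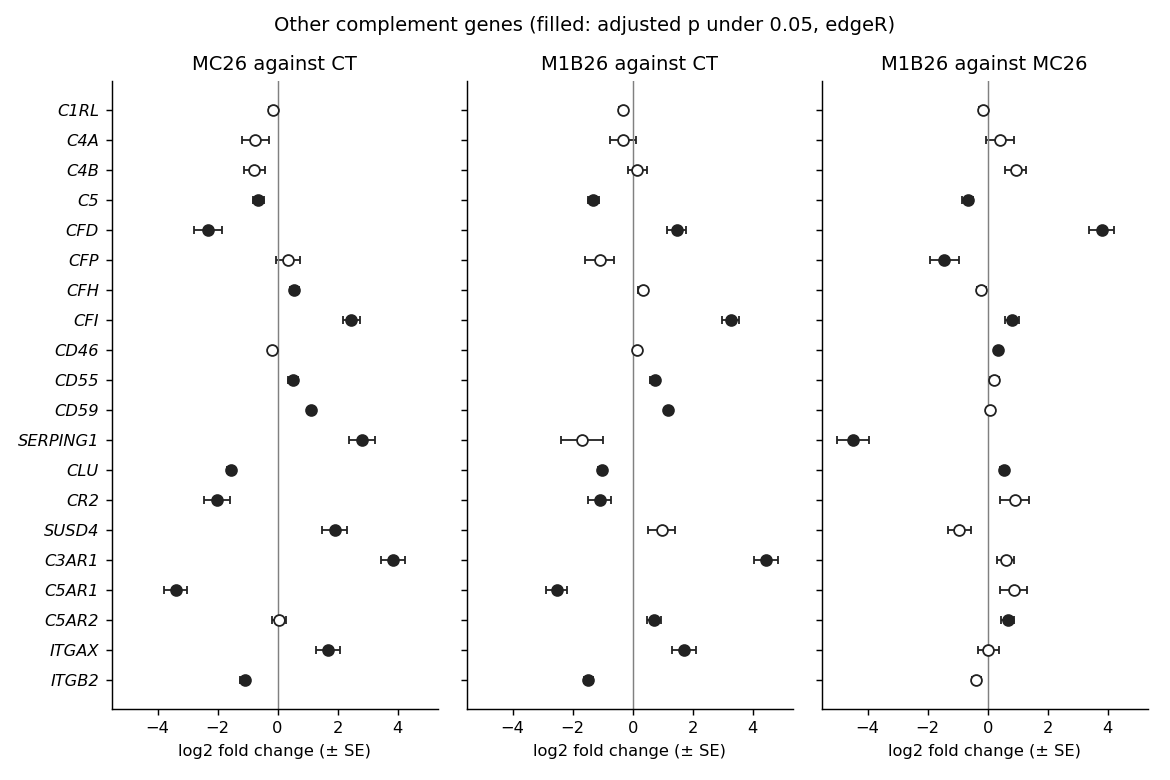
Log2 fold changes with their standard errors of the other complement genes that passed the filter, components above and regulators and receptors below, in the 3 comparisons. Filled points passed an adjusted p of 0.05, and C3AR1 has the highest value and C5AR1 the lowest in both comparisons with CT.

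Few other acute-phase genes were measurable, with 3 of 20 tested. CRP, HP, FGA and ORM2 had at most 3 counts in any library. PTX3, a long pentraxin, rose by 0.86 and 0.84 in MC26 and M1B26 (edgeR adjusted p 0.000936 and 0.000733), LRG1 by 1.03 and 1.66 (adjusted p 0.0288 and 0.00156), and CD14 by 2.06 in M1B26 (adjusted p 3.75e-05). Of 5 genes that fall in the acute phase, 2 were tested, and RBP4, the retinol carrier, rose by 0.79 in MC26 and fell by 2.63 in M1B26. Of 21 further epithelial defence genes 8 were tested, with 1 higher and 1 lower in MC26 and 4 higher in M1B26. Among all tested genes 38.7% were called in MC26 and 48.9% in M1B26. RNASE7 rose by 2.36 and 1.80, and S100A8 and S100A9 rose in M1B26 by 2.58 (edgeR adjusted p 0.0105) and 2.44 (adjusted p 0.00290). All 3 tested partners of the member proteins fell against CT, where 19.9% of all genes were called lower in MC26 and 23.7% in M1B26. LRP1, the clearance receptor of serpin-protease complexes, had log2 fold changes of -1.79 in MC26 and -1.23 in M1B26. The values were -1.95 and -1.14 for SORL1 and -0.45 and -0.75 for TGM2.

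Of 12 regulators of these genes, 4 rose and 2 fell in MC26, where 38.7% of all genes were called, and 7 rose and 2 fell in M1B26, where 48.9% were. NFKBIZ, an NF-kB cofactor for acute-phase genes, rose by 1.17 in MC26 (SE 0.16, edgeR adjusted p 0.000237) and by 1.77 in M1B26 (SE 0.16, adjusted p 8.76e-06), and was higher in M1B26 than in MC26 by 0.59 (adjusted p 0.0102). RELB rose by 1.06 in each line, and NFKB2 by 0.25 and 0.35. STAT3 rose in M1B26 by 0.37 (edgeR adjusted p 0.00756), as did CEBPB by 0.53 (adjusted p 0.0202) and NFKBIA by 0.45 (adjusted p 0.00524). SOCS3, the feedback inhibitor of IL6 signalling, rose in MC26 by 2.39 (edgeR adjusted p 7.18e-07) and in M1B26 by 2.44 (adjusted p 3.84e-07). IL6 and IL6R were those that fell, IL6 by 4.26 and 4.04 and IL6R by 0.75 and 0.89. IL6 had 303, 11 and 15 counts in all in CT, MC26 and M1B26. CEBPD and IL6ST passed no test, and OSMR differed only between the derived lines (-0.25, edgeR adjusted p 0.0356). Of 20 further cytokines, receptors and signalling genes 16 were tested, with 7 higher and 5 lower in MC26 and 5 higher and 5 lower in M1B26. IL1B rose by 2.71 in MC26 and 4.12 in M1B26, IL1A by 2.21 and 3.03, and the NF-kB inhibitor TNFAIP3 by 1.78 and 2.09. LIFR fell in both lines (-1.95 and -2.09), as did LIF (-1.77 in MC26 and -0.80 in M1B26). IL1R1 fell by 1.05 in M1B26 and rose by 0.33 in MC26 (edgeR adjusted p 0.00478).

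Other genes shared the library pattern of single members, measured by Pearson r of log2 CPM over 9 libraries among 10628 non-member genes averaging 5 CPM or more. These r values come from libraries that share depth and line, and they are given without a test. ORAI2 was nearest to SAA1 (r = 0.993) and to SAA2 (0.977), and PRKCH was second to both (0.976 and 0.960). C1R was nearest to SLC39A8 (0.986), ETS2 (0.979) and PID1 (0.977), and C1S to GPR141 (0.991), CLEC2B (0.988) and SERPINB3 (0.986). SERPINA1 was nearest to BTBD11 (0.986), LAMB1 and LTBP1, and SERPINA3 to GGT5 (0.988), ASS1 and PRKX. C3 was nearest to PRUNE1 (0.967) and ATF4 (0.965), CFB to MAOA (0.940) and KLF11 (0.940), LCN2 to MMP28 (0.939) and PI3 to SNN (0.909).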

How the data were processed

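Counts were analysed for 9 poly-A RNA libraries, 3 each of CT, MC26 and M1B26, grouped by their titles. The deposited table gave unnormalised read counts for each symbol. For it the authors ran STAR 2.7.3a against GRCh38 with GENCODE v33. Their methods also name Salmon 1.1.0 on protein-coding genes, but the table holds whole numbers and non-coding genes, so the counting program, strandedness and handling of multi-mapped reads are not given in the sources used here. In R 4.3.3, edgeR 4.0.16 kept genes passing filterByExpr (minimum count 10), scaled by TMM and fitted line as the only term to all 9 libraries. Tests by glmQLFTest were 2-sided, with Benjamini-Hochberg adjustment over 15717 genes and a threshold of 0.05. They were tried on simulated counts with the same spread for every gene. This trial does not cover members that vary widely within a line. A floor of 3 counts limits detection per library, and such limits cover counting error only. Python 3.11.15 made CPM, ratios and positions (GENCODE v44, GRCh38). Exonic length is the union of annotated exons. Promoter windows are from RefSeq.

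All members are named whatever their values. Other listed genes are named if called, changed at least 2-fold and not overlapping, up to 4 in each direction and comparison, and a list with 5 or fewer called genes may be named whole. The 3 genes with the highest r are listed per member, and the text names 1 to 3 of them. The members, lists and rules were chosen with earlier results of these data known. The fit was repeated with DESeq2 1.42.0, with RLE factors or plain total counts, unfiltered or with a filter at a mean of 50 counts, at an adjusted p under 0.01, on the 6 compared libraries, blocked by replicate number, and without each library.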

Additional observations from a re-analysis of the deposited data

Results flagged for a closer look

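MC26 and M1B26 differed in 4 members by the direct test of the 2 lines in edgeR with Benjamini-Hochberg adjustment. The same test called 39.5% of all tested genes at an adjusted p under 0.05. Calls were thus about as frequent among the members as among genes at large. The lines differ in sorting and cloning, and perhaps in the length of exposure to the same factors, which cannot be told apart. SAA1 (1.53, adjusted p 0.00862), SAA2 (1.66, adjusted p 0.0202) and C3 (0.81, adjusted p 0.0132) had higher log2 CPM in M1B26 than in MC26, in 3 of 3 libraries against 3 of 3. SERPINA1 differed the other way, with a log2 fold change of -0.38 (adjusted p 0.0167). The SAA2 and SERPINA1 calls rested on single libraries, as given with their values above.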

How the results depend on the processing

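Of 477 member values under alternatives, 426 kept direction and side of the threshold, 24 passed it newly, 17 lost it and 10 reversed. C1R, C1S and SERPINA1 against CT kept their calls in all of them. At an adjusted p under 0.01, 3698 genes and 3 members were called in MC26 against CT, and 3685 genes and 1 member in M1B26 against MC26. M1B26 against CT had 3 called members at 0.01. The gene count at that threshold is not given here, and 48.9% of all tested genes were called at 0.05. Without the filter on low counts 8 members were called in each comparison, and 6391, 7994 and 6404 genes, against 6081, 7688 and 6215 with it. Adjusted p values of members fell steeply in that edgeR fit. For CFB in MC26 against CT it was 0.000158 against 0.152 with the filter. For C1R in M1B26 against MC26 it was 0.000534 against 0.157. The reason was not tested, so the added calls need caution. Leaving out a library gave 3 to 6, 3 to 7 and 2 to 5 called members in that order. The fewest were called without MC26 replicate 2, CT replicate 2 and MC26 replicate 2. Counts of all genes in these fits are not given here, so no shift particular to the members can be read from them.

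The reversed values all belong to members that passed no test in that comparison. Leaving out a library gave -0.36 to 0.21 for C3 in MC26 against CT (positive without MC26 replicate 1). In M1B26 against CT it gave -0.22 to 0.62 for SAA1, -0.071 to 0.86 for SAA2 and -0.65 to 0.29 for LCN2, negative without M1B26 replicate 3 and for LCN2 also without CT replicate 2 (-0.17) or with total counts (-0.047). In M1B26 against MC26 it gave -0.58 to 0.59 for CFB, positive without MC26 replicate 3 or M1B26 replicate 1 (0.061), and -0.20 to 0.44 for C1S, negative without MC26 replicate 1. The cause was not tested. With total counts in place of TMM the called genes were 2169 higher and 3898 lower in MC26, against 2947 and 3134, and 3094 higher and 4729 lower in M1B26, against 3959 and 3729.

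Equal replicate numbers come from titles alone, and in no comparison did every equal-numbered pair correlate above 0.1. With the replicate block 7, 6 and 4 members were called, and the counts of all genes with this block are not given here. SAA2 (-1.35) and PI3 (0.89) were new in MC26 and SERPINA3 (-1.57, adjusted p 0.0164 by edgeR) new in M1B26. LCN2 in M1B26 reversed (-0.029). In M1B26 against MC26 every library correlated best with its own number. Depth limits LCN2 most.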
